A study of Homo sapiens with 2 samples.

Results

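The genes described here encode mitochondrial respiratory complexes II, III, IV and V, their dedicated assembly factors and cytochrome c. They were taken by symbol: probe sets naming a single gene of the SDH subunits A to D, the SDHAF, UQC, numbered COX or ATP5 families, CYC1 or CYCS. The rule found 139 of the 54675 probe sets, and these name 71 of the 19775 genes that have a probe set of their own. Of the 71 genes, 68 encode proteins of the complexes or cytochrome c, and 58 of these had a signal above 50 in at least 1 array. The other 3 (the divergent transcript COX10-DT and the pseudogenes ATP5MC2P1 and COX6A1P1) did not pass 50 on either array and are not counted further. A probe set that names several genes was assigned to none of them, so a statement that a gene did not pass 50 covers its single-gene probe sets alone. SDHB and UQCRFS1 were not analysed here, and UQCRH is given only by a probe set that it shares with UQCRHL.

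The cells were HT-29, an established line from a human colorectal adenocarcinoma. They received 20 nM of an siRNA pool against MYC (ON-TARGETplus SMART pool) or a control, by reverse transfection with lipofectamine RNAiMAX for 24 h, and were used after 48 h. The treatment protocol names the control as the ON-TARGETplus Non-targeting Pool, but "None" stands in the treatment field of the control sample. It is called control siRNA here. Each treatment was measured on 1 Affymetrix U133 Plus 2.0 array, so that no difference below has a replicate check or a test, and 1 siRNA pool in 1 cell line was compared.

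In the respiratory chain, complex II (succinate dehydrogenase) feeds electrons from succinate into ubiquinone. Complex III passes them to cytochrome c, complex IV (cytochrome c oxidase) passes them to oxygen, and complex V (ATP synthase) uses the proton gradient built by the chain to make ATP. Complex II is encoded wholly in the nucleus, while the other complexes also hold subunits encoded in mitochondrial DNA. Assembly factors insert hemes, copper and iron-sulfur clusters or stabilise unfinished complexes, and are not part of the finished enzyme. MYC is a transcription factor known to bind E-box sequences at many genes of growth and mitochondrial biogenesis.

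The targeted gene, MYC, gave 1963 on the control array and 1640 on the MYC siRNA array by its single probe set, 1.20-fold lower (log2 ratio -0.26). With loess the MYC log2 ratio was -0.16 and with quantile normalization -0.17, both smaller than the SD of 0.20 between probe sets given below. The study reports MYC knockdown by siRNA with immunoblots, which measure protein and are not part of these data. By gene set enrichment, it also reports curated MYC target sets among the genes decreased by MYC siRNA. A hallmark set of oxidative phosphorylation is in the same list, below the MYC sets. That enrichment was not repeated here. Each array had the same mean signal of 100 once 2% of probe sets were trimmed at either end, and 16074 and 16571 probe sets exceeded 50 with control and MYC siRNA. Of 8 colon epithelial markers, 7 were above 50 in both arrays, the exception being CDX2, and of 5 markers of other cell types, 4 were at or under 50 in both, the exception being COL1A1. As signals come from bulk RNA, fewer cells expressing a gene and less RNA per cell cannot be told apart. Between probe sets of the same member gene, the log2 ratio had a standard deviation (SD) of 0.20 over 24 genes, which is the only measure of error here and covers differences between probe sets, not between cultures.

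In the descriptions below, the signal with control siRNA is given first. Most genes of complexes II to V had a slightly lower signal with MYC siRNA. Of the 58 above 50, 45 were lower and 13 higher, with a median log2 ratio of -0.15 and a range from -0.59 to 0.72, while 33 were lower with loess and 35 with quantile normalization. For comparison, 46.5% of the 8917 genes above 50 were lower, with a median of 0.03. At least 20% lower were 14 of the 58, against 17.0% of all genes, and at least 25% higher was 1, SDHAF4, against 24.2% of all genes. Read against the SD of 0.20, 23 genes were lower by more than the SD, 6 were higher by more than it and 29 lay within it.

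Large differences were few. At 1.5-fold, 1 member was lower, ATP5MK, and 1 was higher, SDHAF4, where 5.72% of all genes were lower and 10.4% higher. No member gene reached 2-fold in either direction, while 0.695% of all genes were at least 2-fold lower and 2.73% at least 2-fold higher. Among the 96 member probe sets above 50, 1 was at least 2-fold lower: a dimmer probe set of ATP5PO, a peripheral stalk subunit of complex V, read 440.9 and 205.3. The brighter ATP5PO probe set read 1763 and 1576, so that the size of the ATP5PO difference depended on the probe set.

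The ratio moved with signal across the arrays, and most members are bright. Of the 58 genes, 42 were among the 1784 brightest when the 8917 genes were cut into 5 equal groups by mean signal. In that group the median log2 ratio was -0.10, compared with 0.15 in the dimmest group, and 61.6% of its 1784 genes were lower, 21.4% by at least 20%, with 13.7% at least 25% higher. Of the 42 bright members, 32 were lower, 7 by at least 20%, with a median of -0.12. The 16 members in the other groups comprised 13 that were lower, 7 by at least 20%, with a median of -0.28. The bright members therefore lay close to the median of equally bright genes, and the dimmer members lay below the medians of the other 4 groups, which ran from -0.01 to 0.15.

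**Figure D1:**
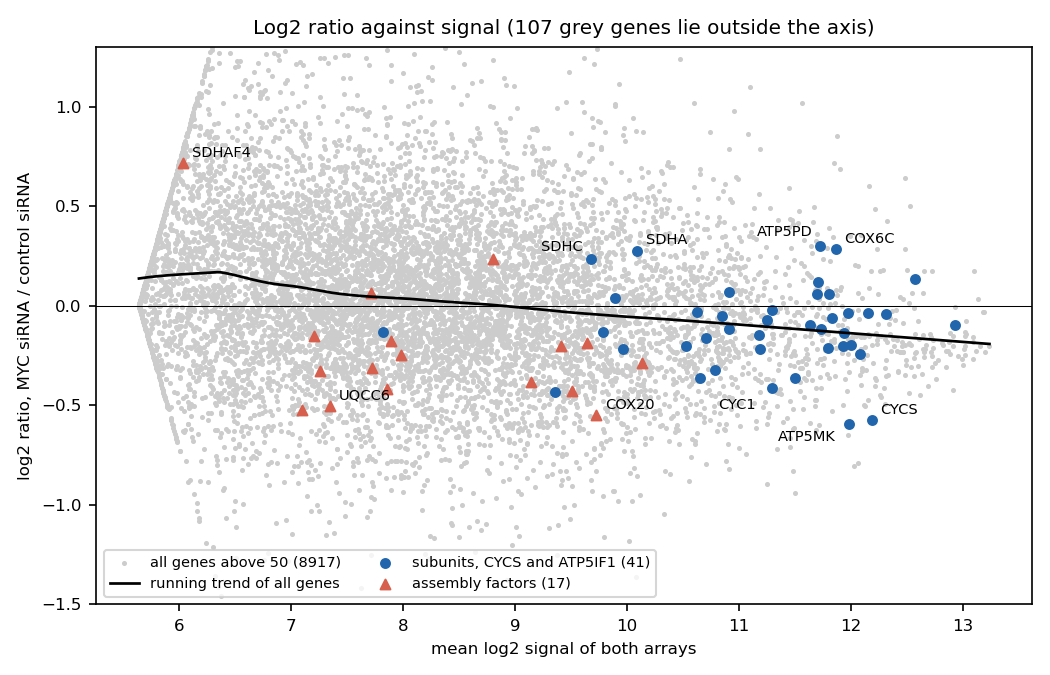
Log2 ratio between the arrays (MYC siRNA over control) against mean log2 signal for 8917 genes (grey), subunits with CYCS and ATP5IF1 (blue circles) and assembly factors (red triangles), with the running trend of all genes as a black line. The trend is lower at high than at low signal, the blue circles lie on both sides of it, and 14 of the 17 assembly factors lie below 0.

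The medians differed by the role of the protein. Subunits and cytochrome c, 40 genes above 50, had a median log2 ratio of -0.11, and 7 (17.5%) were at least 20% lower. Assembly factors, 17 genes above 50, had a median of -0.29, with 14 lower and 7 (41.2%) at least 20% lower. Over all genes the share was 17.0%. The 31 assembly factors above 50 with other names, described further below, had a median of -0.19. When linear ratios were averaged over the probe sets of a gene, the medians were -0.07 for the subunits and -0.19 for the 17 assembly factors. After a loess fit removed the relation of ratio to signal, the median of the subunits was 0.03 and that of the assembly factors -0.26. Whether the gap between these medians exceeds the spread between cultures was not tested.

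**Figure D2:**
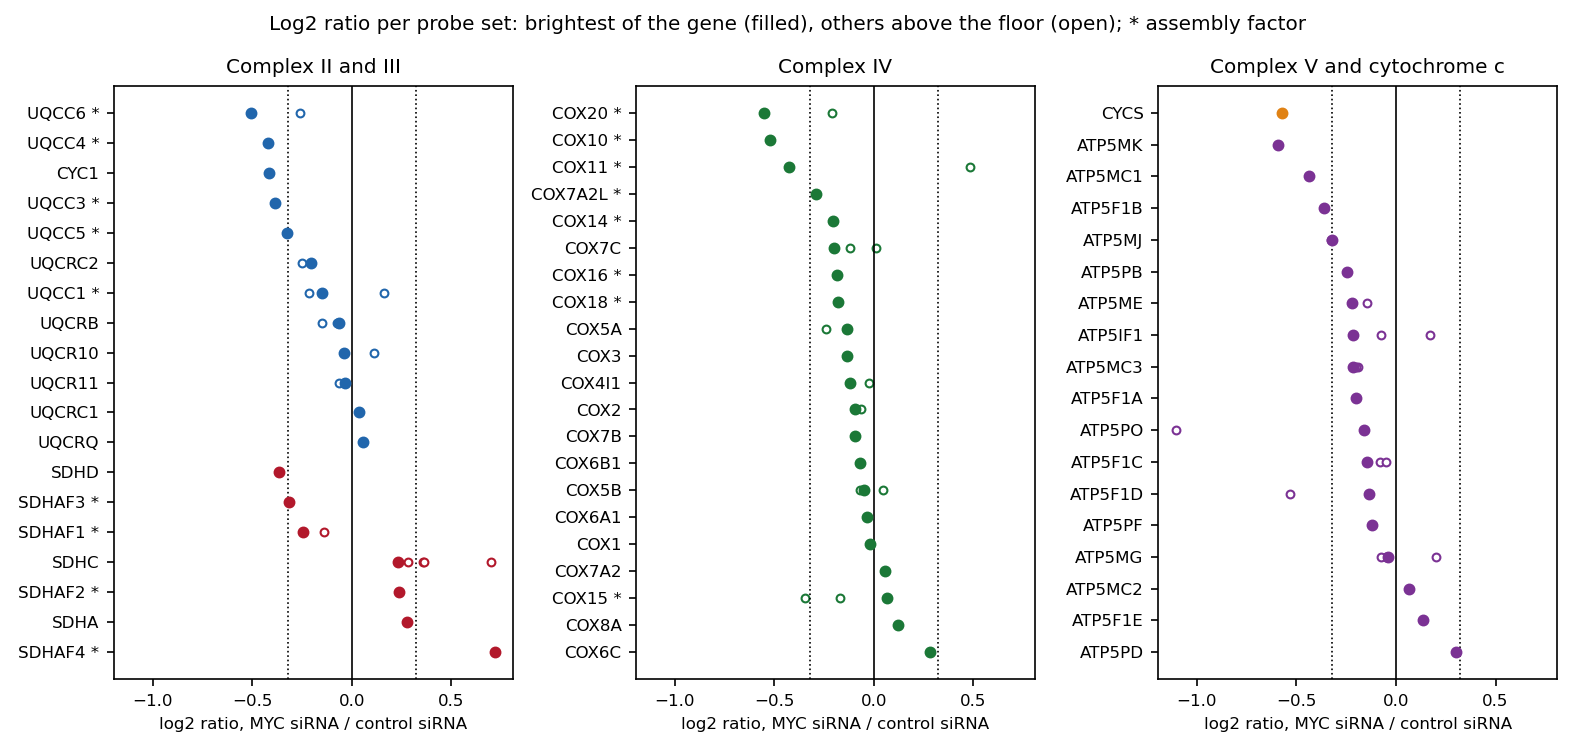
Log2 ratio of each member gene above 50, grouped by complex; filled points are the brightest probe set of a gene, open points its other probe sets above 50, and dotted lines mark 20% lower and 25% higher. Complex II has genes on both sides of 0, while 10 of 12 genes of complex III, 17 of 21 of complex IV and 14 of 17 of complex V lie below it.

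Among the complexes, complex II stood on the other side of 0, with a median log2 ratio of 0.23 over 7 genes, 3 lower and 4 higher. The medians were -0.18 for complex III (12 genes, 10 lower, 5 by at least 20%), -0.12 for complex IV (21 genes, 17 lower, 3 by at least 20%) and -0.20 for complex V (17 genes, 14 lower, 4 by at least 20%). At least 20% lower were thus 41.7%, 14.3% and 23.5% of these genes. The share was 17.0% over all genes and 21.4% over the brightest group, so complex IV was below both and complex V near them. The ranges of all the complexes overlapped. The complex II median rests on few genes, and it was -0.01 once SDHAF4, whose control signal of 51.3 lay at the edge of the floor, was left out by a floor of 100. With loess the complex IV median was 0.02.

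SDHA, the flavoprotein that oxidises succinate, read 992 and 1202, a log2 ratio of 0.28, by its only single-gene probe set, which ends in _x_at. A dimmer probe set listed for SDHA, SDHAP1, SDHAP2 and SDHAP4 read 117 and 104. Its log2 ratio was -0.17, in the other direction, and it is not counted. SDHC, a membrane anchor that holds the ubiquinone site, read 757 and 890, a log2 ratio of 0.23. All 6 SDHC probe sets above 50 were higher with MYC siRNA, from 0.23 to 0.70 on the log2 scale. The 0.70 came from the dimmest of them, at 52.0 and 84.6, at the edge of the floor, and the others reached at most 0.36. The reported SDHC probe set ends in _x_at, and most of the others end in _s_at or _x_at. SDHC was also the sole gene among the 24 with several probe sets above 50 for which each of them was higher. SDHD, the other membrane anchor, differed in direction from its partner, with 1820 and 1415, which is 1.29-fold lower.

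The 4 assembly factors of complex II were likewise split. SDHAF2, which attaches the flavin to SDHA, read 413 and 486, and SDHAF4, which acts on the flavinated SDHA, read 51.3 and 84.4, a log2 ratio of 0.72. SDHAF1 and SDHAF3, which serve the iron-sulfur subunit, were lower, with 276 and 233 for SDHAF1 and 236 and 190 for SDHAF3. SDHAF3, at 1.24-fold lower, was the gene just outside the threshold of 20%. The pair acting on SDHA was thus higher and the pair acting on the iron-sulfur subunit lower, with log2 ratios of 0.23, 0.72, -0.25 and -0.31 in the order named.

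In complex III, the assembly factors and cytochrome c1 were lower, while most structural subunits differed little. UQCC6 read 195 and 137 (1.42-fold lower, log2 ratio -0.51), with its other probe set at -0.26. UQCC4 read 269 and 201 (1.34-fold lower). UQCC3, which stabilises newly made cytochrome b, read 646 and 494 (1.31-fold lower), and UQCC5 read 172 and 137 (log2 ratio -0.33). With UQCC1, which acts on cytochrome b and read 156 and 141, each of the 5 assembly factors with a single-gene probe set above 50 was lower, with a median log2 ratio of -0.39. The single-gene probe set of UQCC2 did not pass 50, but a probe set listed for both MIR3934 and UQCC2 read 685 and 938, a log2 ratio of 0.45 in the other direction, and is not in these counts.

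CYC1, cytochrome c1, the heme subunit that hands electrons to cytochrome c, read 2912 and 2183, which is 1.33-fold lower. It was the sole complex III subunit at least 20% lower, and the median of the 7 subunits was -0.04. The core subunits differed from each other: UQCRC2 read 1587 and 1377 (log2 ratio -0.20), with both of its probe sets lower, whereas UQCRC1 read 937 and 962 (0.04). The small subunits UQCRB, UQCR10, UQCR11 and UQCRQ lay between -0.06 and 0.06. UQCRQ, at 3252 and 3383, was the highest gene of complex III. A probe set listed for both UQCRHL and UQCRH read 4008 and 3235 (log2 ratio -0.31), lower by more than the SD between probe sets, and is not counted.

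CYCS, cytochrome c, the soluble carrier between complexes III and IV that also triggers apoptosis when released, read 5702 and 3831. It was 1.49-fold lower (log2 ratio -0.57), the second lowest of the 58 genes, and -0.41 with loess. Thus CYC1 and CYCS, consecutive electron carriers, were lower by more than the SD between probe sets, each by a single probe set above 50.

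**Figure D3:**
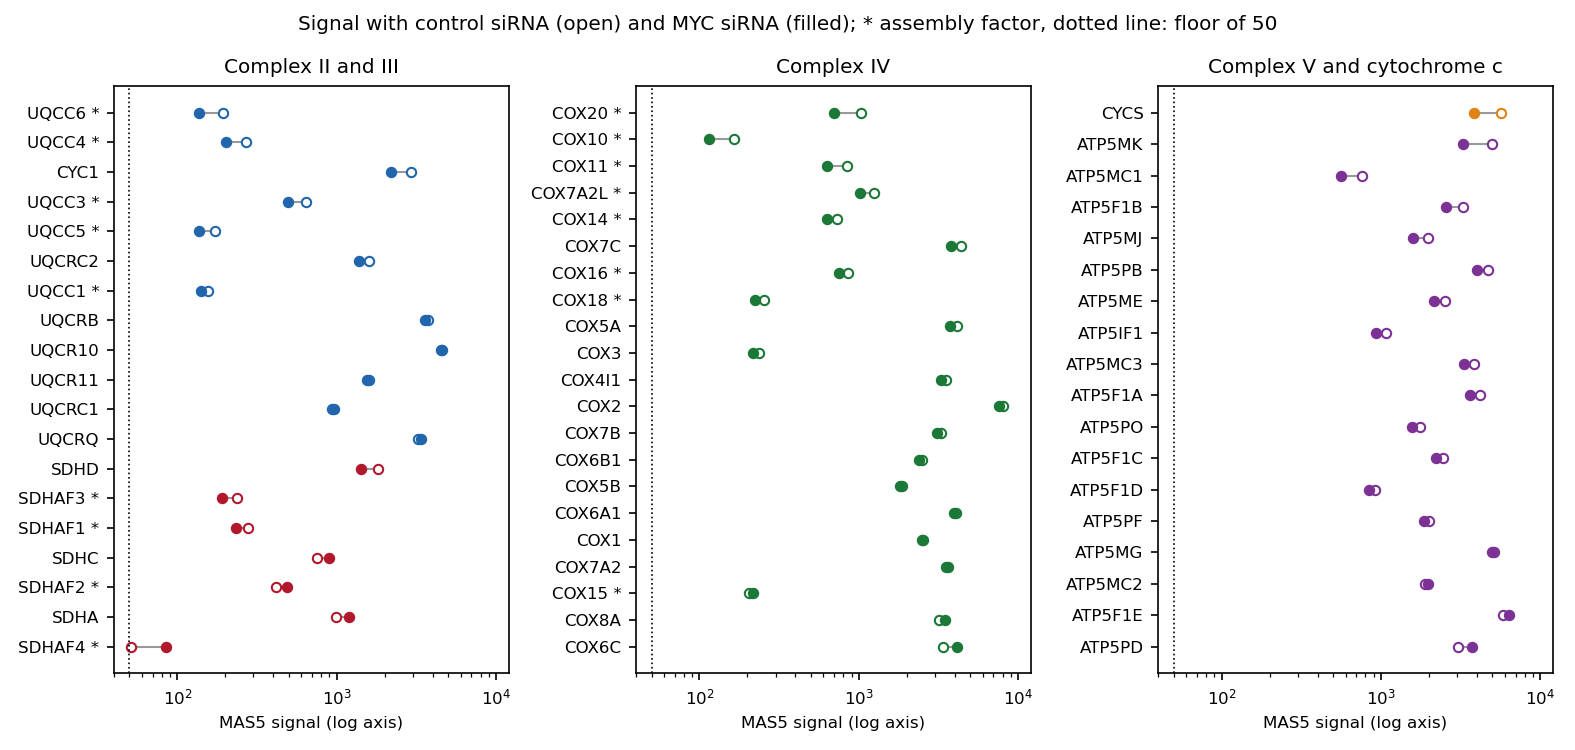
MAS5 signals of the 58 member genes above 50 on a log axis, with control siRNA (open points) and MYC siRNA (filled points) joined by a line for each gene. Every point is 1 array, and a filled point can cover the open one. CYCS, ATP5MK and CYC1 read lower with MYC siRNA, and SDHA, SDHC, COX6C and ATP5PD read higher.

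In complex IV, too, the lowest genes were assembly factors. COX20, a chaperone of the newly made COX2 protein, read 1026 and 701 (1.46-fold lower), with its other probe set at a log2 ratio of -0.21. COX10, which makes the heme O precursor of heme A, read 164 and 114 (1.44-fold lower). COX11, which inserts copper into the COX1 protein, read 847 and 630 (1.34-fold lower), but a second and dimmer COX11 probe set read 57.8 and 80.7. The mean log2 ratio of both COX11 probe sets was 0.03, so that the direction of COX11 depends on the probe set.

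The remaining assembly factors of complex IV differed less. COX7A2L, a supercomplex factor, read 1244 and 1018 (log2 ratio -0.29), COX14 read 729 and 634, COX16 read 853 and 750, and COX18 read 253 and 223. A dimmer probe set listed for both SYNJ2BP-COX16 and COX16 read 68.7 and 81.3 (log2 ratio 0.24) and is not counted. COX15, which completes heme A, read 206 and 215 by its brightest probe set, while its other probe sets were lower, down to -0.35. Of the 8 assembly factors above 50, 7 were lower and 3 (37.5%, against 17.0% of all genes) were at least 20% lower, with a median of -0.25. The single-gene probe sets of COX17 and COX19, which handle copper, did not pass 50, while a probe set listed for both POPDC2 and COX17 read 1408 and 1213 (log2 ratio -0.21) and is not counted.

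By the reported values, none of the 10 nuclear-encoded subunits of complex IV above 50 was 20% lower or 25% higher, and their median was -0.06. COX6C was the highest, at 3384 and 4118 (1.22-fold higher), followed by COX8A at 3206 and 3485 (log2 ratio 0.12). COX7C, at 4382 and 3814 (log2 ratio -0.20), was the lowest of them. These differences depended on the processing: with loess only COX7C was still lower, at -0.05. COX6C was past 25% higher with loess (log2 ratio 0.43) and with quantile normalization (0.42). The 3 core subunits encoded in mitochondrial DNA were each lower by less than the SD between probe sets: COX1 read 2527 and 2492, COX2 read 8057 and 7537, and COX3 read 237 and 216. With loess and with quantile normalization, COX1 and COX2 were higher instead. Here COX1 and COX2 are the oxidase subunits, not the prostaglandin synthases that share these names.

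Several subunits of complex IV exist as paralogues, and the form used in most tissues was the form detected. COX4I1 read 3537 and 3256, COX6A1 read 4063 and 3960, COX6B1 read 2499 and 2379, COX7A2 read 3513 and 3654, and COX8A was given above. Their counterparts COX4I2, COX6A2, COX6B2, COX7A1 and COX8C, known from lung, muscle, heart or testis, did not pass 50 on either array, as was COX7B2. Thus no counterpart passed 50 with control siRNA or with MYC siRNA.

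In complex V, the lowest genes were membrane subunits and the catalytic beta subunit. ATP5MK, a small membrane subunit known from dimers of the synthase, read 4961 and 3286, which is 1.51-fold lower (log2 ratio -0.59) and the lowest of the 58 genes. With loess its log2 ratio was -0.44. ATP5F1B, the catalytic beta subunit, read 3278 and 2549 (1.29-fold lower), and ATP5F1A, its alpha partner, read 4182 and 3638 (log2 ratio -0.20). ATP5MJ, a small proteolipid of the membrane part, read 1976 and 1579, with log2 ratios of -0.32 and -0.33 by its probe sets.

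The genes of the c ring, the rotor through which protons pass, encode the same mature protein but had different ratios. ATP5MC1 read 762 and 563 (1.35-fold lower), ATP5MC3 read 3829 and 3301 (log2 ratio -0.21, with its 3 probe sets between -0.21 and -0.19), and ATP5MC2 read 1882 and 1970 (0.07). The gap between the log2 ratios of ATP5MC1 and ATP5MC2 was larger than the SD between probe sets.

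The highest genes of complex V were ATP5PD, a peripheral stalk subunit, at 3042 and 3743 (1.23-fold higher), and ATP5F1E, the epsilon subunit, at 5822 and 6400 (log2 ratio 0.14). By part of the enzyme, the median was -0.15 over 5 genes of the catalytic head, -0.14 over 4 genes of the peripheral stalk and -0.22 over 7 genes of the membrane part. Of the membrane genes, 6 were lower and 3 (42.9%, against 17.0% of all genes) were at least 20% lower. ATP5IF1, which inhibits ATP hydrolysis by the enzyme, read 1077 and 928, with its probe sets from -0.22 to 0.17. The single-gene probe set of ATP5MF did not pass 50, while a probe set listed for both ARMC2-AS1 and ATP5MF read 3964 and 3891 (log2 ratio -0.03) and is not counted.

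Not all probe sets of a gene gave the same direction. Of the 24 members with several probe sets above 50, 15 had each of them lower, 1 (SDHC) had each of them higher and 8 had both directions. Apart from COX11, the members with both directions were ATP5IF1, ATP5MG, COX15, COX5B, COX7C, UQCC1 and UQCR10, none of which was at least 20% lower.

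Promoter sequence was compared because MYC binds the E-box CACGTG and because many respiratory genes carry sites of the factors NRF1, GABP and YY1. RefSeq promoters of GRCh38.p14, from 250 bases before to 50 bases after the start site, matched 53 of the 68 genes, 46 of them above 50. CACGTG, which reads alike on both strands, was in 7 of the 46 (15.2%), in 11.1% of the 7480 promoters of genes above 50 and in 7.43% of 27305 promoters in all. The 7 genes were each lower with MYC siRNA, where 45 of all 58 members above 50 were lower. Their median log2 ratio was -0.24, against -0.14 in the 39 without the motif, and whether the motif goes with the ratio was not tested. The 7 genes included UQCC6, UQCC5, ATP5MC1 and ATP5PB, and also UQCR11, which differed by -0.03. With loess and with quantile normalization UQCR11 was higher instead, at 0.06. The sites are shown because they are the sequences MYC is known to bind; capitals mark CACGTG, and each is read along the strand of the gene.
UQCC6 (chr12:103957255-103957284, minus strand, 51 bases before the start): cctcctctgcgtCACGTGcctgcgccggca
UQCC5 (chr3:52536399-52536428, plus strand, 188 bases before the start): ccgggccggcgcCACGTGggctgtccttcc
UQCR11 (chr19:1605632-1605661, minus strand, 181 bases before the start): cggccgccagacCACGTGgccagaaagcac
COX14 (chr12:50112171-50112200, plus strand, 47 bases before the start): ggacgctaccctCACGTGtctggttccgag
ATP5MC1 (chr17:48892779-48892808, plus strand, 4 bases after the start): gaaggtccaggaCACGTGggtgggggaagc
ATP5PB (chr1:111449229-111449258, plus strand, 217 bases before the start): ggcagcaaacccCACGTGgtgcacctctga
ATP5ME (chr4:674421-674450, minus strand, 156 bases before the start): gcgcgtgcgcctCACGTGacgtcaccgccg

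A match of these letters is a description and not a bound site. The promoters of CYCS, COX20 and ATP5MK, the 3 lowest genes, do not hold CACGTG in this window, and when any listed start site of a gene was allowed the shares were 15.2% of members and 13.6% of genes above 50. The variant CACGCG, on either strand, was in 12 of the 46 promoters (26.1%) and in 19.4% of those of genes above 50.

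The element of NRF1, searched as GCATGCGC on either strand, was in 10 of the 46 promoters (21.7%) against 6.15% of the promoters of genes above 50 and 3.27% of all. The 10 genes had 8 lower and a median of -0.13, against -0.17 in the 36 without it. CYCS, the second lowest gene, SDHD, a lower gene of complex II, and ATP5MC2, a c ring gene that was higher, each hold it. SDHAF2, with a log2 ratio of 0.23, holds it too, while SDHA and ATP5MC1 do not. SDHC and ATP5MC3 matched no promoter, so the element does not set SDHD or ATP5MC2 apart from all their partners. Whether the element goes with the ratio was not tested. The sites of CYCS, SDHD and ATP5MC2 are shown as examples, with the element in capitals. In SDHD the element is also found on the other strand, overlapping the one shown.
CYCS (chr7:25125411-25125440, minus strand, 161 bases before the start): catgctcgccaGCATGCGCgcgcaggtcct
SDHD (chr11:112086754-112086783, plus strand, 100 bases before the start): gctgtgtttgcGCATGCGCgacgggtgtgc
ATP5MC2 (chr12:53676105-53676134, minus strand, 32 bases before the start): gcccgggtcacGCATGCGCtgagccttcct

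CCGGAAG, the core bound by ETS factors such as GABP, was in 17 of the 46 promoters (37.0%) against 22.2% of those of genes above 50, and 12 of the 17 genes were lower. AAGATGGCG, bound by YY1, was in 3 of the 46 (6.52%) against 4.53%. Both were searched on either strand.

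Assembly factors with other names were listed separately, and 24 of the 31 above 50 were lower, 8 by at least 20%, and 3 were at least 25% higher, with a median log2 ratio of -0.19. For complex III, BCS1L, which inserts the Rieske iron-sulfur protein, read 288 and 156 (1.85-fold lower), and LYRM7, a chaperone of the same protein, read 254 and 166 (1.53-fold lower). TTC19, the third factor listed for complex III, was higher, with 336 and 360. For complex IV, 19 of 24 were lower, with COA7 at 624 and 392 (1.59-fold lower), TIMM21 at 621 and 408 (1.52-fold lower) and SLIRP, which binds mitochondrial messenger RNA, at 3086 and 2173 (1.42-fold lower). COA3, at 976 and 1257, and PET100, at 453 and 578, were at least 25% higher. For complex V, TMEM70, FMC1 and ATPAF1 had log2 ratios of -0.28, -0.21 and -0.21, and TMEM242, also at least 25% higher, read 54.8 and 91.7.

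HCCS, the lyase that attaches heme to CYCS and CYC1, read 361 and 273 (1.32-fold lower), the same direction as both of its substrates. Of 13 genes of ubiquinone synthesis and transport, 6 were lower and 7 higher, with a median of 0.02. Lower by at least 20% were 3 of the 13 (23.1%, against 17.0% of all genes), COQ8A at 162 and 96.1, PDSS1 at 351 and 230, and COQ3 at 273 and 187. Higher by at least 25% were 4 of the 13, against 24.2% of all genes, so the list was near the shares of all genes in both directions. The 4 were COQ10B at 247 and 347, PDSS2 with a log2 ratio of 0.43, COQ5 at 159 and 212, and COQ6 at 38.7, set to 50 for the ratio, and 63.9. Of 8 factors above 50 that were listed with the transcription of respiratory genes, 7 were lower. PPRC1, TFAM and PPARGC1B, 3 of the 8 (37.5%), were at least 20% lower, against 17.0% of all genes. PPRC1 read 247 and 143 (1.72-fold lower), and PPARGC1B read 71.5 and 20.9, the latter set to 50 for the ratio. ESRRA, at 322 and 272, was less than 20% lower. TFAM, which packages and transcribes mitochondrial DNA, read 1216 and 807 (1.51-fold lower). The factors whose elements were searched in promoters differed by less than the SD. Their log2 ratios were 0.08 for NRF1, -0.07 for GABPA, -0.19 for GABPB1 and -0.07 for YY1. ATP6, a complex V subunit encoded in mitochondrial DNA, read 4021 and 3840 (log2 ratio -0.07), less than the SD between probe sets, as for COX1, COX2 and COX3. Of the complex I genes in mitochondrial DNA, ND2 read 6459 and 5070 (log2 ratio -0.35) and ND6 read 105 and 61.9 (-0.76), both lower by more than the SD, while ND4 read 4930 and 4979 or 5326 and 5107 by its probe sets.

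Complexes II to V were set beside complex I and the mitochondrial ribosome. Of 33 complex I subunits above 50, 18 were lower and 15 higher, with a median of -0.03, and 3 (9.09%) were at least 20% lower. Of 75 mitochondrial ribosomal proteins, 73 were lower and 41 (54.7%, against 17.0% of all genes) were at least 20% lower, with a median of -0.34. The subunits of complexes II to V, at -0.11, lay between these medians. The 17 assembly factors found by the symbol rule, at -0.29, lay nearer to the ribosomal proteins. The 31 assembly factors with other names, at -0.19, lay nearer to the subunits. These are descriptions of the same pair of arrays, and differences between the lists were not tested.

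**Figure D4:**
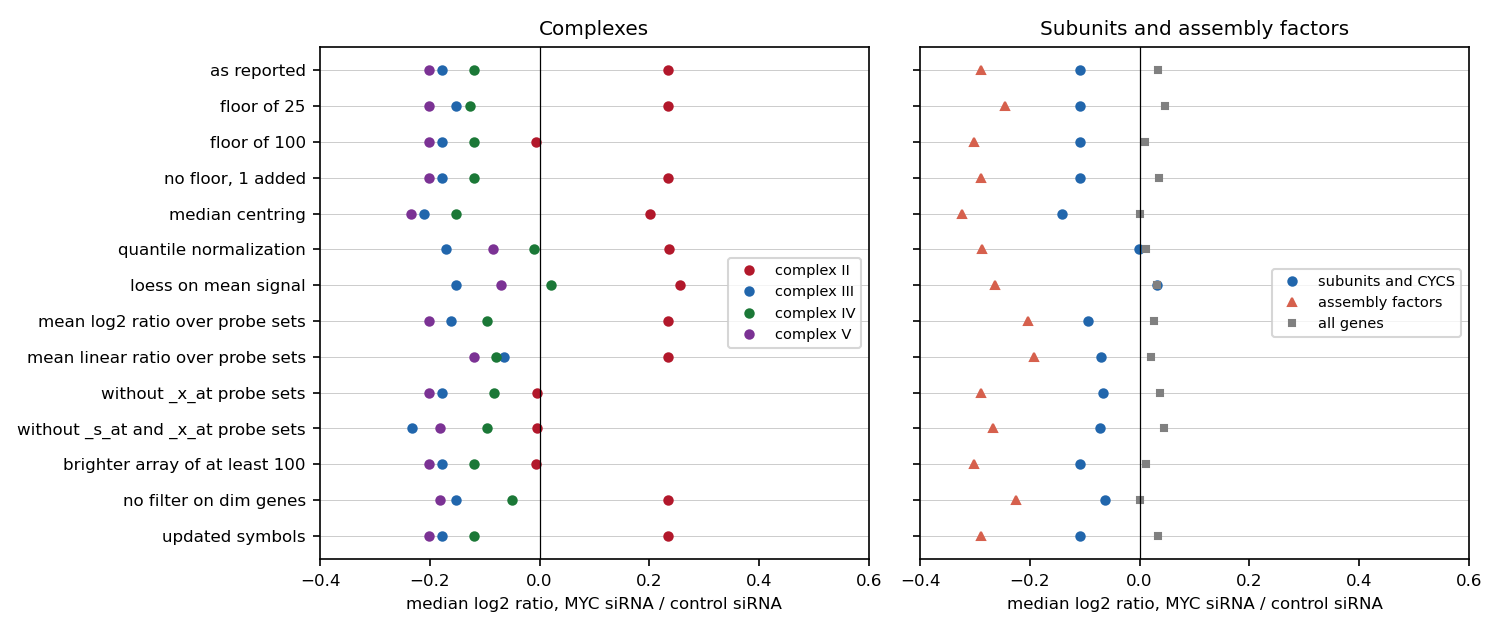
Median log2 ratio of each complex (left) and of subunits, assembly factors and all genes (right) under each processing setting, 1 line per setting. Complexes III and V and the assembly factors lie below 0 under every setting drawn, complex IV lies at 0.02 with loess, and complex II lies between -0.01 and 0.26.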

How the data were processed

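The deposited intensity values cover 54675 probe sets on 2 arrays, 1 per group. Per the labels and methods, the authors computed them with MAS5 (R package affy 1.40.0) and scaled them to a mean target level of 100. They carry no floor or logarithm. No array was left out or pooled. The platform annotation names 1 gene for 41097 probe sets, and only these were used.

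Signals under 50 were set to 50, as in the study's methods, and log2 ratios of MYC siRNA to control siRNA were taken. A gene took its probe set with the highest mean signal and was described where either array exceeded 50. The study's ratio threshold of 2 was used with thresholds of 1.5 and of 20% lower or 25% higher. With 1 array per group no p-value was computed, the number of arrays limits the precision, and lists are described by counts and medians beside those of all genes. Ratios are relative to the authors' scaling. Because a probe's brightness depends on its sequence, signals are compared between arrays and not between genes.

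Members, lists and alternatives were chosen with earlier results of these data known. Named are MYC, members past 1.5-fold, the 3 lowest and 2 highest genes of each complex, complex II subunits, the redox or catalytic subunits and core subunits of complex III, paralogue groups, and up to 3 genes with the largest ratio and a signal of at least 100 of each other pathway list; other genes are given where their role completes a group, and were chosen after their values were seen. Promoters and symbols came from RefSeq (GRCh38.p14); a gene's first listed start was used.

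Alternatives were floors of 25 and 100, no floor with 1 added, median centring, quantile normalization, loess on mean signal (span 0.3), other probe set rules, other filters on dim genes and updated symbols. The calculations were tested on simulated data. Python 3.11.15, numpy 2.4.6, pandas 2.3.3, statsmodels 0.14.6 and matplotlib 3.10.9 were used.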

Additional observations from a re-analysis of the deposited data

How the results depend on the processing

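No paired analysis was possible because each group has 1 array, and for the same reason no replicate could be left out. The median log2 ratio of complex II was -0.0059 with a floor of 100 or a brighter array of at least 100 and -0.0055 without probe sets ending in _x_at, or in _s_at or _x_at. That of complex IV was 0.0215 with loess. Over the alternatives the medians ran from -0.01 to 0.26 for complex II, -0.23 to -0.07 for complex III, -0.15 to 0.02 for complex IV and -0.23 to -0.07 for complex V. Members at least 1.5-fold lower numbered 2 with median centring or when log2 ratios of all probe sets of a gene were averaged, 0 with loess, and 14 at the threshold of 20%. Members at least 1.5-fold higher numbered 0 with a floor of 100 or a brighter array of at least 100. COX11 had a log2 ratio of 0.0279 when its probe sets were averaged on the log2 scale and 0.0501 on the linear scale. Of 742 values of 59 genes under the alternatives, 731 moved by less than the SD between probe sets. The sign was opposite to the reported one in 34 values of 15 genes, 12 of them with loess and 10 with quantile normalization, and apart from COX11 these genes had reported log2 ratios of at most 0.22 in size. Of the 14 genes at least 20% lower, 13 were lower under each alternative that held them, COX11 being the exception. COX10, ATP5MC1 and COX11 had no value without probe sets ending in _s_at or _x_at.

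With loess, 33 of the 58 members were lower, 11 by at least 20%, and 4 were at least 25% higher. With quantile normalization, 35 were lower, and the median was -0.29 for assembly factors. Subunits alone, an alternative chosen after seeing the data, gave medians of 0.23, -0.04, -0.07 and -0.18 for complexes II, III, IV and V. The cause of these shifts was not tested. Signals near 50 limit SDHAF4, and the spread between cultures was not measured.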
